A study of Mus musculus with 2 samples.

Results

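Peaks of an anti-FLAG CUT&Tag library were examined at 10 Kruppel-like factor (Klf) genes: Klf2, Klf3, Klf4, Klf6, Klf7, Klf9, Klf10, Klf12, Klf13 and Klf16. The peaks were selected by the gene symbol in the authors' annotation of their peak list, and 140 of the 99782 annotated peaks (99797 peaks in all) carried 1 of these symbols. GENCODE M21 lists 17 Klf genes. The 10 were chosen from earlier results on this same peak list, so the number and height of their peaks are a description and carry no test. CUT&Tag tethers the transposase Tn5 to chromatin through an antibody, and the cut fragments are sequenced. The series consisted of 2 libraries from hippocampal tissue of mice of strain C57BL/6J and genotype CamK-PARIS, untreated: 1 made with an anti-FLAG antibody, to capture the zinc-finger repressor PARIS (mouse gene Zfp746), and 1 with IgG, the negative control. The labels give no age, no number of animals and no promoter for the transgene, and no mouse without the transgene is among the samples. The IgG library entered only through the authors' peak calling. With 1 library per antibody no value has a replicate error, and every comparison below is between positions within 1 peak list. The tissue is a mixture of cells, so a low signal from many cells and a high signal from few cannot be told apart.

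Kruppel-like factors are transcription factors with C-terminal C2H2 zinc fingers that recognise GC-rich sequences and CACCC boxes, the same kind of site that Sp factors bind. Their N-terminal parts differ and set the class: class 1 members (here Klf3 and Klf12) recruit the corepressor CtBP, class 2 members (Klf2, Klf4, Klf6 and Klf7) act mostly as activators, and class 3 members (Klf9, Klf10, Klf13 and Klf16) recruit Sin3 corepressors. In neurons the family is known for its part in axon growth and in the maturation of neurons after birth, and several members are rapidly induced by activity or hormones.

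Sequences under peaks near a transcription start are shown first, because the results turn on which Klf genes had such a peak. Each is the 200 bp window centred on the region of maximum signal, on the strand of the gene and 5′ to 3′, read from the GRCm38.p6 (mm10) genome with bases of annotated UTRs left out. Capitals mark matches on either strand to CCNCNCCC, a core shared by GC boxes and CACCC boxes, and to TATTTTT or TATTTTG, the insulin response sequence reported as the element that PARIS binds. Overlapping matches were counted separately, so a marked stretch, such as a run of G, can hold several. The Klf4 summit window lies in the 5′ UTR and is not shown. The second Klf10 window is the highest peak assigned to that gene, far upstream of it. The Klf16 and Klf12 windows, labelled promoter by the authors' class, lie 951 and 483 bp downstream of the assigned start, inside the gene. The Klf7 window, at -240 bp from its assigned start, also lies inside the annotated gene, whose 5′ end is farther upstream, at chr1:64122282. No annotated start of Klf16 or Klf12 lay in a peak.
Klf7 promoter, chr1:64121632-64121831, minus strand: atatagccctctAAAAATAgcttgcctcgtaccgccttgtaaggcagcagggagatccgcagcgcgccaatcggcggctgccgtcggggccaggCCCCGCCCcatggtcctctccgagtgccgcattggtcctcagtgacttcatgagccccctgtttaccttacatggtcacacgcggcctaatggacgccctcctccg
Klf13 promoter, chr7:63939078-63939277, minus strand: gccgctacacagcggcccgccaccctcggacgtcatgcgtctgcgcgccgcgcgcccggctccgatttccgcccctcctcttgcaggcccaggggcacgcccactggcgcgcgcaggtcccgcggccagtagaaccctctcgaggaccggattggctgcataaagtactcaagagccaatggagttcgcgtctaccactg
Klf10 promoter, chr15:38300707-38300876, minus strand: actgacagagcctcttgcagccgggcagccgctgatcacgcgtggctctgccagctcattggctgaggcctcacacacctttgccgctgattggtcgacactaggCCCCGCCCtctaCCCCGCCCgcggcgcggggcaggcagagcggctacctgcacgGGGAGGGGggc
Klf10 upstream peak, chr15:38384549-38384748, minus strand: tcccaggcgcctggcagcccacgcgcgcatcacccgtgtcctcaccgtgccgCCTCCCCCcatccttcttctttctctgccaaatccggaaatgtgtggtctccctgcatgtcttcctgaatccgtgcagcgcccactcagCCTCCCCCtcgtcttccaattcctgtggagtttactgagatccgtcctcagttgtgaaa
Klf9 promoter, chr19:23141027-23141225, plus strand: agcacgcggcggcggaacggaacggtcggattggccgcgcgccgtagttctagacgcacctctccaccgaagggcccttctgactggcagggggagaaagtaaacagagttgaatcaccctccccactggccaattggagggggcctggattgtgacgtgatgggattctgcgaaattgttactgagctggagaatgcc
Klf16 promoter, chr10:80576217-80576416, minus strand: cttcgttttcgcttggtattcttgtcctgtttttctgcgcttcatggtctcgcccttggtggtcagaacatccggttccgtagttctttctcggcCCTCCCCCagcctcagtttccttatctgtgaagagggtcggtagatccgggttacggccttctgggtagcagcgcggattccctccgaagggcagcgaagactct
Klf12 promoter, chr14:100283793-100283992, minus strand: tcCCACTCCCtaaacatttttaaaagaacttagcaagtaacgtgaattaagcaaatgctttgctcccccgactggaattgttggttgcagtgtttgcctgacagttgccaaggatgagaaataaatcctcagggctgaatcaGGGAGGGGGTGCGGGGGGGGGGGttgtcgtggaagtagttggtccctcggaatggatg

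The Klf7 window held 1 match to each motif and the Klf10 promoter window 3 matches to CCNCNCCC. The Klf10 upstream window held 2 matches to CCNCNCCC. The Klf13 and Klf9 windows shown lie upstream of the gene start, within the peak that covers it, and held none to either motif. By shorter motifs, the Klf13 window held 1 GC box GGGCGG and 1 CACCC, and the Klf9 window 1 CACCC. The RefSeq promoter that spans the start held 5 matches to CCNCNCCC for Klf13 and 0 for Klf9. The other windows within 1 kb of a TSS of these genes, not shown, held 4 (Klf13 at -277 bp), 1 (Klf13 at -321 bp), 4 (Klf9 at 185 bp) and 0 (Klf9 at -656 bp) matches to CCNCNCCC. For contrast, these are bases upstream of the start of the 3 genes without a peak within 1 kb of a transcription start site (TSS), from RefSeq promoters on GRCm38.p6, trimmed and marked in the same way.
Klf2, chr8:72318862-72319032, plus strand: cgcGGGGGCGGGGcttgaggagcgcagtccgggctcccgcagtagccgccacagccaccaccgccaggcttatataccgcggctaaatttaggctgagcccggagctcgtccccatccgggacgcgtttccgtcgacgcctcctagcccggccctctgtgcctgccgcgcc
Klf3, chr5:64803321-64803387, plus strand: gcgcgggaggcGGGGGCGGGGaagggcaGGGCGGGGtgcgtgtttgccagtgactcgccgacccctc
Klf6, chr13:5861289-5861481, plus strand: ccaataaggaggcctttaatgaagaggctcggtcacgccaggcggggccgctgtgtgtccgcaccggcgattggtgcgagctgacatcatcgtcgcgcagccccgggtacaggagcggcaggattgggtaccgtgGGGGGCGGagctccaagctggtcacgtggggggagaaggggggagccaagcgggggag

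All 3 of these stretches without a peak held CCNCNCCC, with 2 matches for Klf2, 3 for Klf3 and 1 for Klf6. A match is a description of the letters and not evidence of binding.

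All 10 genes had an assigned peak, as did 71.0% of the 21911 protein-coding genes. A peak within 1 kb of a TSS, by the authors' distances, was present for 7 of the 10 (Klf4, Klf7, Klf9, Klf10, Klf12, Klf13 and Klf16) against a background of 41.6%. Leaving out peaks of constant height, defined below, kept 6 of these genes against 28.3%. The 5′ end of the annotated gene itself lay inside a peak for 5 of the 10 (Klf4, Klf7, Klf9, Klf10 and Klf13), against 20.4% of protein-coding genes. Since the genes were chosen with these peaks known, nothing is read from the distance between these counts and the background. The 5′ end of Klf12 was 678 bp and that of Klf16 783 bp from the nearest peak edge. For Klf2 that distance was 2639 bp, for Klf6 15925 bp and for Klf3 22009 bp.

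**Figure D1:**
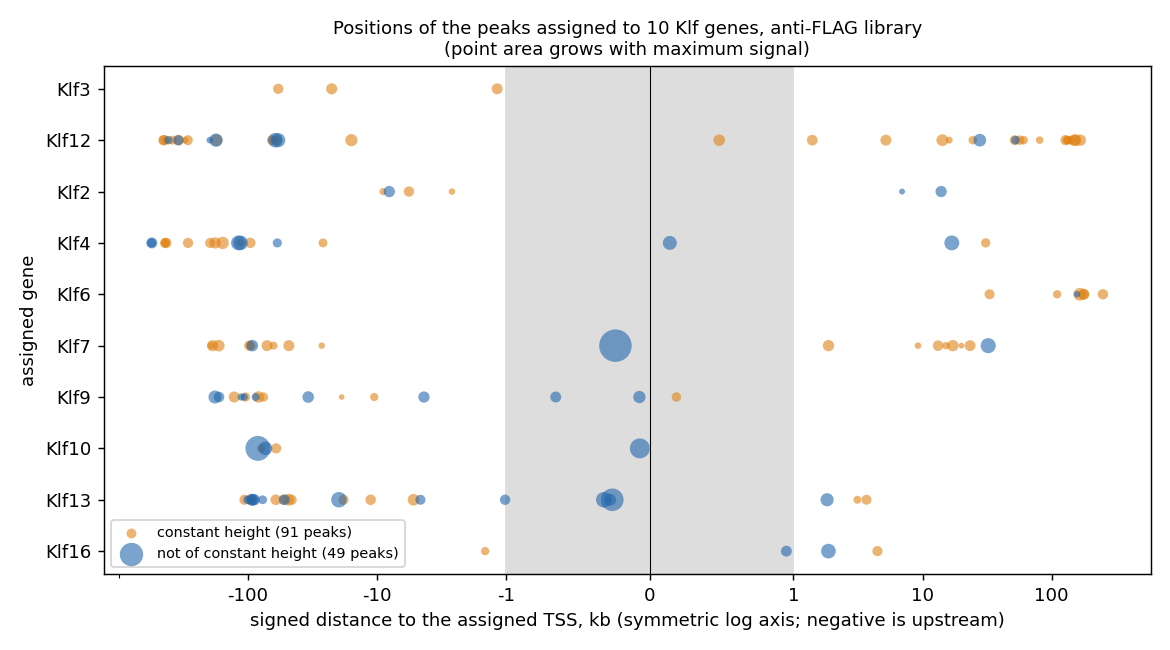
Signed distance of each of the 140 peaks to its assigned TSS in kb (symmetric log axis, negative is upstream), by gene; point area grows with maximum signal, orange points are the 91 peaks of constant height, blue points the 49 others, and the grey band marks 1 kb to either side. The largest points are the peaks of Klf7 at -240 bp, Klf10 at -83900 bp and Klf13 at -262 bp, and the band is empty for Klf2, Klf3 and Klf6.

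Class 3 genes all had a peak near a TSS. Klf13, which recruits Sin3A and is known from T lymphocytes and heart, had 25 peaks. Of these, 13 varied in height along their width. The authors give each peak a maximum signal (its highest coverage) and a total signal (coverage summed over its bases), both in whole numbers whose scaling is not stated. The peak over the Klf13 gene start (chr7:63937357-63939750, 2394 bp wide) reached a maximum signal of 594, rank 142 of all peaks, and the highest total signal of any Klf peak, 536315. Further peaks within 1 kb of other Klf13 transcript starts reached 266 and 144, and the 3 together held 49.6% of the total signal assigned to the gene. In the list of all 8484 peaks within 1 kb of a TSS that are not of constant height, the peak at the gene start stood at percentile 99.1 by maximum signal and 99.8 by total signal.

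Inside the Klf13 gene (52.6 kb on chromosome 7) lay the regions of maximum signal of 15 peaks, or 28.5 per 100 kb, 6.43 times the mean of the chromosome. Only 6 of these carried the symbol Klf13. The other 9 had been assigned to E030018B13Rik, which GENCODE M21 lists as a protein-coding gene on the opposite strand within Klf13, and among them was a peak at chr7:63896294-63897265 with a maximum signal of 422. That was the highest of the 15, since the region of maximum signal of the promoter peak lies upstream of the gene. Counting by symbol therefore left out the highest peak of the Klf13 gene body.

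Klf10, a TGF-beta-inducible early response gene, had 5 peaks, and the region of maximum signal of each lay outside the gene. The peak that covered the gene start (chr15:38300393-38301843) reached 455, at percentile 97.4 of the TSS peaks just described. A higher peak, 730 (rank 47 of all peaks), lay at -83900 bp (chr15:38383730-38385974, 2245 bp wide). The authors classed it as distal intergenic. GENCODE M21 places the start of a long non-coding RNA, Gm26863 (chr15:38384981-38386300, plus strand), inside this peak. The other 3 Klf10 peaks lay between these positions with maximum signals of 53, 95 and 197.

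Klf9 is induced by glucocorticoids and thyroid hormone and acts in the maturation of hippocampal granule neurons. Its 16 peaks had maximum signals from 6 to 176. The peak over the gene start (chr19:23140473-23141708) reached 154, percentile 47.8 of the TSS peaks, and 2 peaks near a start inside the gene reached 116 and 79. The highest Klf9 peak by maximum signal, 176, lay at -180339 bp inside Trpm3, a neighbouring ion channel gene. By total signal the peak over the gene start was the highest, 71426 against 49130 for that peak. Of the 16 peaks, 7 lay in the long non-coding gene C330002G04Rik, 2 in Trpm3, 2 in Klf9 and 5 in no gene. The Klf9 gene body held 6 peaks, of which 4 carried the symbol of the microRNA Mir1192 inside it.

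Klf16, first described as a regulator of dopamine receptor genes, had 4 peaks within 6.57 kb, which makes it the most compact of the loci. Of these, 3 lay in its gene body, a density 7.61 times that of chromosome 10. The chromosome mean includes intergenic sequence, and no mean over gene bodies was taken. Over all Klf genes the ratio ran from 0, for instance at Klf2, to 9.20 at Klf11, which is not among the 10. The highest Klf16 peak, 233, lay at 1868 bp downstream of the TSS and held 68.2% of the total signal of the gene. The only Klf16 peak within 1 kb, at 951 bp, reached 113.

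Among class 2 genes, Klf7 had the highest peak of the family. Klf7 is expressed in the developing nervous system and promotes axon growth. The peak at chr1:64119676-64122374 was 2699 bp wide, contained all 3 annotated transcript starts of the gene and reached 1263, rank 4 of all peaks and percentile 99.98 of the TSS peaks. It carried 54.5% of the total signal over the 19 Klf7 peaks. The next Klf7 peak reached 248, in intron 3 of 3. The other 17 lay between 10 and 135, and 16 of the 19 were of constant height. The Klf7 gene body held 13 peaks, 3.93 times the chromosome mean, of which 4 carried the symbol of Mir6899.

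Klf4, one of the reprogramming factors of pluripotent stem cells, had 18 peaks spread over 591 kb. The peak over its start (chr4:55531917-55533359) reached 208, percentile 69.1 by maximum and 89.4 by total signal among TSS peaks. Peaks at 16848, -114346 and -118516 bp reached 241, 228 and 241. Its promoter peak was thus not the highest of its assigned peaks by maximum signal, but it had the highest total signal, 139532. No gene of GENCODE M21 contained 14 of the 18 peaks, and 12 lay more than 100 kb from the TSS.

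Klf2 and Klf6 had no peak within 1 kb of a TSS. Klf2, a flow-responsive factor of endothelial cells and of quiescent T cells, had 6 peaks, none inside a gene. The one nearest to its start, at -2639 bp, had a maximum signal of 19 and a constant height, and the highest, 126, lay at -8066 bp. Klf6, an early response gene that promotes axon growth, had 7 peaks, none nearer than 33035 bp and 6 of them more than 100 kb away. The highest, 168, lay at 164882 bp, and that with the most total signal, 28502, at 110165 bp; 6 of the 7 were of constant height. No region of maximum signal lay inside either gene.

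In class 1, 32 of 40 peaks were of constant height, 29 of them at Klf12, against 36 of 50 in class 2, 23 of 50 in class 3 and 63.3% of all peaks. The median maximum signal was 95.5 in class 1, 99.5 in class 2 and 103 in class 3, beside 101 for the whole list. Klf12, a repressor of the AP-2alpha gene, is the longest of the 10 genes (414 kb) and had the most peaks, 37, over 1002 kb. The density inside its gene body was 1.14 times the chromosome mean. Its highest peaks, 227 and 215, lay in intron 1 of 7 at -61506 and -58421 bp. The only peak within 1 kb, at 483 bp from the start of an annotated transcript, had a constant height of 133. Its window held 7 matches to CCNCNCCC, most of them overlapping in 1 G-rich stretch. The Klf12 start in the RefSeq promoter table had no peak, and the nearest peak to the corresponding GENCODE start was 15844 bp away. Klf3, which represses genes in erythroid cells and adipocytes, had 3 peaks, all of constant height, with maximum signals of 99, 116 and 120. The nearest was at -1178 bp from an internal start, and none of its 9 annotated starts lay in a peak. The Klf3 peak of 120, at -22508 bp, also had the highest total signal of the gene, 35638.

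**Figure D2:**
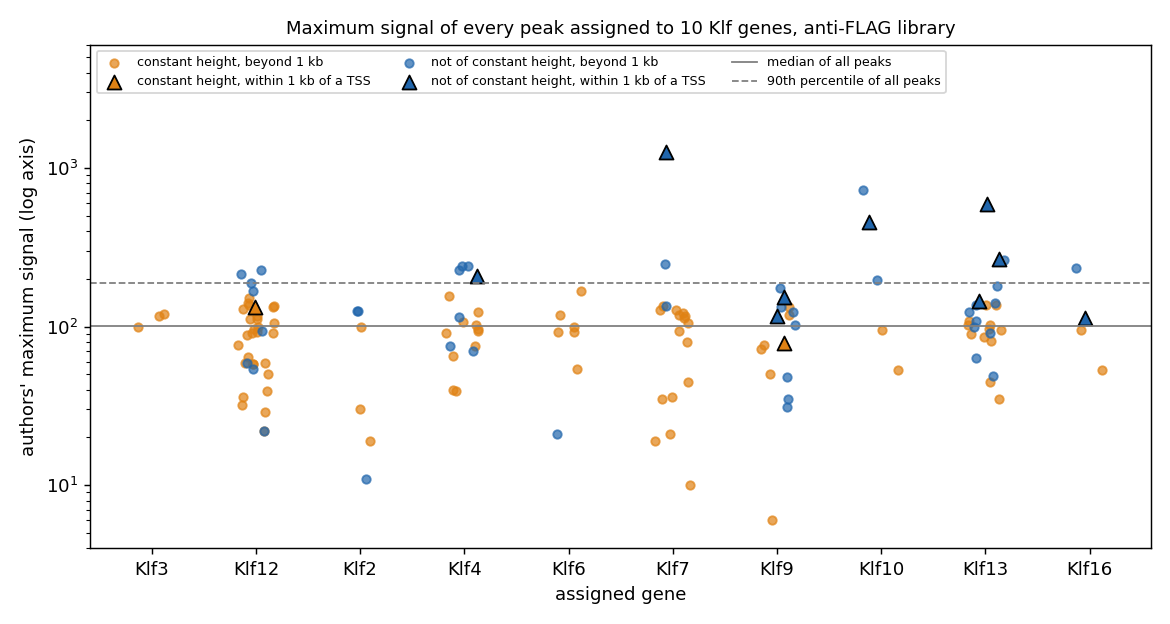
Authors' maximum signal (log axis) of every peak assigned to the 10 genes, by shape and by distance to a TSS; the solid line is the median of all peaks, 101, and the dashed line their 90th percentile, 189. The triangle of Klf7 stands at 1263, and no peak of Klf2, Klf3, Klf6 or Klf9 reaches the dashed line.

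Over the 140 peaks the maximum signal ranged from 6 to 1263 with a median of 99.5, close to the 101 of the whole list. The median percentile of maximum signal was 48.6. Peaks among the top 10% of the list numbered 15 of 140 (10.7%, 95% Wilson interval 6.60 to 16.9): 4 at Klf4, 3 each at Klf10 and Klf13, 2 each at Klf7 and Klf12, and 1 at Klf16. None was at Klf2, Klf3, Klf6 or Klf9. The family's high values thus came from few positions, and most of its peaks were ordinary for this list.

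Peaks of different shape differed in height. A peak is called of constant height where its total signal is at least 99% of its maximum signal times its width. This held for 91 of the 140 peaks (65.0%, 56.8 to 72.4) and for 63.3% of all peaks. The constant-height Klf peaks had a median maximum signal of 94 and a highest value of 168, and a median width of 260 bp. The 49 others had a median maximum signal of 133 and a median width of 622 bp. All peaks of the list showed the same contrast, with medians of 91 and 247 bp for constant height and 134 and 604 bp for the others. Of the 11 Klf peaks within 1 kb of a TSS 9 were not of constant height, beside 8484 of 15282 for all peaks at that distance.

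By the authors' assignment the Klf peaks lay farther from the assigned TSS than the list as a whole. Within 1 kb of a TSS were 11 of 140 (7.86%, 4.44 to 13.5), against 15.3% of all peaks, and beyond 100 kb were 48 (34.3%, 26.9 to 42.5), against 15.2%. The median distance was 61239.5 bp, against 14783 bp. Distal intergenic peaks made up 44.3% (36.3 to 52.6) against 31.9%, promoter peaks within 3 kb 13.6% (8.86 to 20.2) against 24.6%, and intronic peaks 38.6% (30.9 to 46.8) against 38.0%. Peaks of 1 gene share a locus, so these intervals cover counting error only. Klf12 with 19 and Klf4 with 12 supplied 31 of the 48 far peaks; Klf6 and Klf9 had 6 each, Klf7 3 and Klf13 2. Measured to the nearest GENCODE M21 TSS of any gene instead, 17 of the same 140 peaks lay within 1 kb (12.1%, 7.72 to 18.6), against 17.2% of the 99628 peaks with a gene symbol, and 2.86% against 4.26% lay beyond 100 kb. The median distance was then 10153.5 bp against 8623 bp, so the size of the difference in distance depended on which TSS was used. Of the 38 peaks whose nearest GENCODE TSS belonged to a Klf gene, 26.3% (15.0 to 42.0) lay within 1 kb. Both intervals include the 17.2% of the list.

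Being assigned to a Klf gene often did not mean lying in it. Of the 140 positions 38 (27.1%) lay inside the assigned gene, 34 (24.3%) only inside another annotated gene and 68 (48.6%) in no gene. Each of the 140 was then reassigned to the nearest GENCODE M21 TSS of any transcript, non-coding ones included. Only 38 stayed with the same gene: 9 of 37 for Klf12, 8 of 25 for Klf13, 7 of 19 for Klf7, 4 of 6 for Klf2, 3 each of 16 for Klf9 and of 4 for Klf16, 2 of 3 for Klf3, and 1 each of 18 for Klf4 and of 5 for Klf10. None of the 7 stayed with Klf6.

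Sequence was not used in choosing the genes or the peaks. In 200 bp summit windows CCNCNCCC was present in 38 of 140 (27.1%, 20.5 to 35.05), against 26.7% of all peaks, and in 19.6% of windows 1000 bp to either side of the Klf summits. Within 1 kb of a TSS it was present in 8 of 11 windows (72.7%, 43.4 to 90.3), against 43.5% of all peaks at that distance. Leaving out constant-height peaks, it was present in 6 of 9 (66.7%, 35.4 to 87.9), against 52.4%. The GC box GGGCGG, which can overlap CCNCNCCC, was found in 5 of the 11 windows and in 29.7% of all peaks within 1 kb. CACCC, which can also overlap it, was found in 36.4% of the Klf windows and 41.6% of all. The insulin response sequence was present in 19 of 140 (13.6%, 8.86 to 20.2), against 9.98% of all peaks, and in 11.1% of the Klf flanks. Of these 19 windows 9 belonged to Klf12, and within 1 kb of a TSS only the Klf7 window had it. All intervals for the 140 windows include the value of the whole list.

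Summit windows of the Klf peaks had a GC content of 47.6% ± 8.35 (SD over 140 windows), against 45.3% in their flanks, and 49.0% at all summits. GC was above the flanks in 88 of the 140, a share close to that of all peaks, 64045 of 99676. Peaks not of constant height had 52.8% at the summit and 48.2% in the flanks, and constant-height peaks 44.9% and 43.7%. Among the 9 TSS peaks not of constant height the summit had 61.1% GC and the flanks 56.6%, where all such peaks had 60.7% and 49.6%. By gene, mean summit GC was lowest at Klf12, 43.5%, and highest at Klf10, 59.8%.

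**Figure D3:**
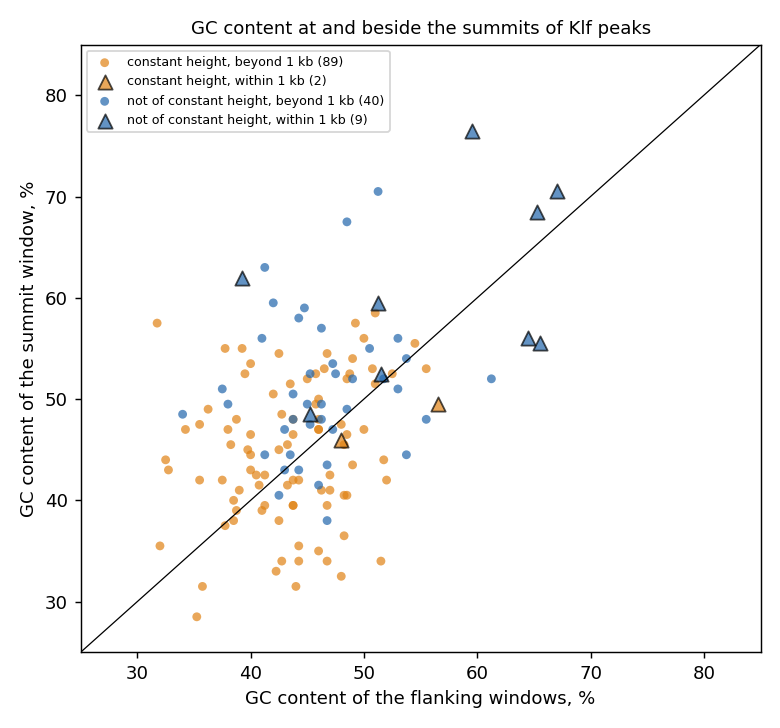
GC content in % of the summit window against the mean of its flanking windows, for the 140 Klf peaks by shape and distance to a TSS; the line marks equal values. Of the points 88 lie above the line, and the promoter peak of Klf4 is the highest, at 76.5%.

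Promoter sequence was compared for the 8 of 10 genes with an entry in the RefSeq promoter table (250 bases before to 50 after the start); Klf10 and Klf16 had none. The promoters of Klf4, Klf7, Klf9 and Klf13 overlapped a peak. Those of Klf2, Klf3, Klf6 and Klf12 did not. Over all 32851 promoters, those with a peak (22.9%) had a GC content of 61.9% ± 9.24 (SD) and those without 51.4% ± 10.7. The Klf promoters with a peak had 58.3% (Klf7), 63.3% (Klf9), 72.0% (Klf13) and 74.3% (Klf4). Without a peak Klf12 had 45.7%, but Klf6 had 63.0%, Klf2 69.3% and Klf3 76.7%, the highest of the 8. The GC content of the Klf promoters with and without a peak thus overlapped. CCNCNCCC was present in 49.5% of all promoters, in 71.7% of those with a peak and in 42.8% of those without. It was present in 7 of the 8 Klf promoters, the exception being Klf9, which had a peak.

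**Figure D4:**
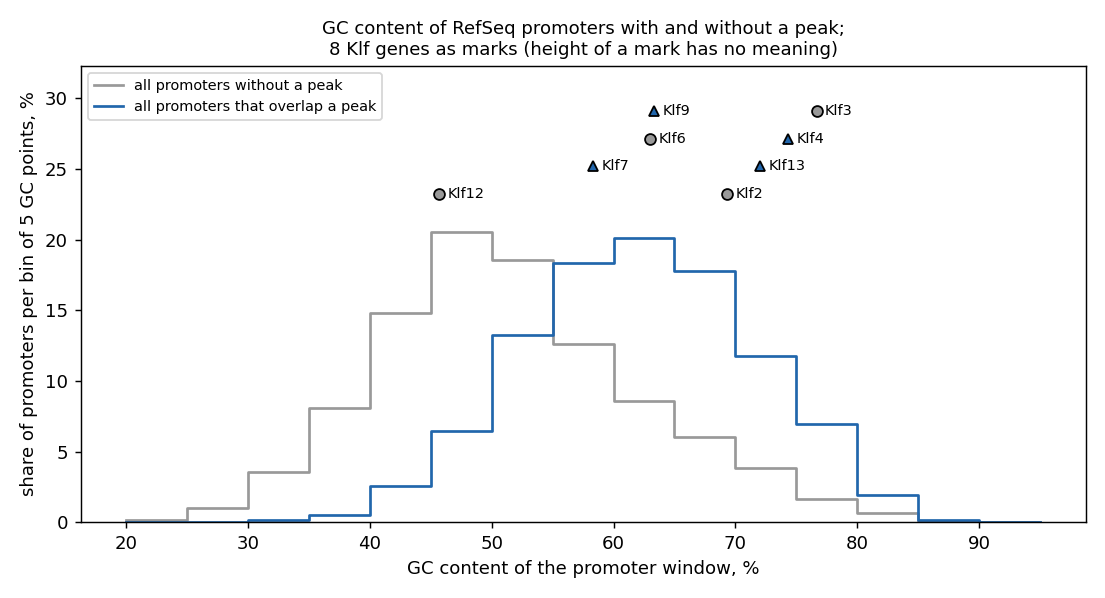
Distribution of GC content in % over all RefSeq promoters with (blue) and without (grey) a peak, as the share of each set per bin of 5 GC points; marks show 8 Klf genes, triangles with a peak and circles without. Klf3 at 76.7% and Klf2 at 69.3% have no peak although they lie among the GC-rich promoters.

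The other 7 Klf genes had 28 peaks. Klf11, a close relative of Klf10, had a peak of 311 over its start and Klf15, a glucocorticoid-responsive factor, one of 199. Klf5 had 10 peaks, with 125 at its start. Klf8 had 5 peaks, all of constant height, including 2 at most 1 kb away from the start of a transcript, while the 5′ end of the gene was 18342 bp from the nearest. Klf14 had 2 peaks, Klf17 had 1 and Klf1, the erythroid member, had 0. By the authors' symbols a peak within 1 kb was present for 4 of these 7 genes, for 3 of the 9 Sp genes and for 4 of the 8 corepressor genes examined (Ctbp1, Ctbp2, Sin3a, Sin3b, Hdac1, Hdac2, Kdm1a and Rcor1), beside 41.6% of protein-coding genes. The highest TSS peaks assigned to Sp and corepressor genes were at Sin3a (983), Sp4 (690) and Sp2 (272), so the corepressor gene Sin3a had a higher promoter peak than every member but Klf7. Sp3, counted as having none, has its 5′ end inside a peak of 729 that carries the symbol Sp3os.

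As a check of the tissue label, 5 of 7 excitatory neuron and hippocampus markers and 3 of 3 inhibitory neuron markers had a peak within 1 kb of a TSS, beside 41.6% of protein-coding genes. The same held for 1 of 4 astrocyte, 0 of 4 oligodendrocyte, 2 of 4 microglia and 2 of 3 endothelial markers. Without constant-height peaks the counts were 4 of 7, 2 of 3, 0 of 4, 0 of 4, 0 of 4 and 1 of 3, in the same order, beside 28.3%. A peak is no measure of expression, and these counts do not identify cell types. The sequencing depth of the libraries is not given by the files and is unknown.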

How the data were processed

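Trimming, Bowtie2 alignment to mm10, removal of duplicates and of alignments of low quality, and SEACR peak calling with the IgG library as control were done by the authors, per the labels' protocols. Versions, the SEACR mode and the scaling of the coverage are not given in the sources used here. The deposited signal columns hold the authors' total and maximum coverage of each peak in whole numbers. The deposited annotation gives, per the file headers, a gene symbol and a signed distance to a TSS, which the values show to be in bp from the region of maximum signal. Its total signal equalled the peak list in 100% of annotated peaks. No depth is given, so precision per peak is unknown.

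Peaks were joined to the annotation by position, and 15 of the 99797 had none. Reference sequence was GRCm38.p6 and gene models GENCODE M21, the same build as mm10. The 99707 peaks on assembled chromosomes all fell within the lengths of that build, and the transcript assigned to 99.0% of annotated peaks was in GENCODE M21. Coordinates count from 1. Windows of 200 bp were searched on both strands, and overlapping matches were counted separately. Shares carry Wilson 95% intervals. Motif search, GC content, distances and merging were tested on simulated data. The analysis used Python 3.11.15 with pandas 2.3.3 and scipy 1.17.1.

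The genes, lists and the definition of constant height were chosen with earlier results of these data known. All 10 genes are named, with each peak within 1 kb of a TSS and the highest peak by maximum and by total signal. Of the comparison lists, each Klf gene and the 3 other genes with the highest TSS peaks by the authors' symbol are named; Sp3, the Klf13 peak assigned to E030018B13Rik and the other remarks on hosts were added after values were seen. Alternatives covered the peak threshold, shape, merging, gene assignment, TSS distance, ranking and window length. A likeness of pattern over samples could not be ranked with 1 library.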

Additional observations from a re-analysis of the deposited data

How the results depend on the processing

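The 7 summary results were recomputed under 42 alternatives, of which 24 moved a value beyond its counting interval, or a count by over 1.5 times, and 18 did not. Several moves were fixed by the setting. The stricter subsets hold fewer peaks, and a cut on maximum signal raises the median percentile of maximum signal. The top 10% starts at 189, above the highest constant-height Klf peak at 168. A 3 kb limit can only raise the share near a TSS. Nested windows of 100 and 400 bp can only lower and raise the share with a motif. For the other moves the cause was not tested. Above the median maximum signal of the list, the Klf genes had 68 peaks, 14.7% within 1 kb of a TSS and 50% of constant height, a median percentile of 73.7 and a summit GC of 49.5%. In the top 10% by maximum signal they had 15 peaks, 4 genes with a peak within 1 kb, 33.3% of peaks within 1 kb, 0% of constant height, a median percentile of 95.1, CCNCNCCC in 46.7% of windows and a GC of 59.7%. Without constant-height peaks there were 49 peaks, 18.4% within 1 kb, a median percentile of 73.7, CCNCNCCC in 38.8% and a GC of 52.8%. Assignment to the nearest GENCODE TSS left 38 peaks, 26.3% within 1 kb, a median percentile of 61.6 and a GC of 49.1%. With 3 kb as the limit, 13.6% of the peaks were near a TSS. Windows of 100 bp held CCNCNCCC in 12.9% of cases and windows of 400 bp in 37.9%.

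The number of genes with a peak within 1 kb was 6 or 7 under the alternatives that kept this limit, other than the top 10%. With a limit of 500 bp it was 6, and with 3 kb it was 9. No paired analysis was possible because each antibody has 1 library and no result comes from a test. The intervals include no error between animals or libraries. No depth is given, so a lack of peaks at the starts of Klf2, Klf3 and Klf6 does not show a lack of signal there.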
